A study of Mus musculus with 18 samples.

Results

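The genes described are 9 genes of prostaglandin synthesis, breakdown and reception, chosen by name: Ptgs1, Ptgs2, Ptges, Ptgis, Ptgds, Hpgd, Ptger2, Ptger3 and Ptger4. They are 9 of the 32747 genes listed in any table of a series on the urinary bladder of C57BL/6 mice, and each of the 13 tables lists all 9. The 18 samples were made by droplet sequencing of cells or nuclei, by spatial sequencing of frozen sections, in which RNA is caught on a grid of barcoded spots, and by bulk RNA sequencing. All mice were C57BL/6 and no allele or agent is labelled. The 5 whole-bladder cell libraries were pools of 3 males aged 22 months, 3 males aged 3 months and, for 2 libraries of 12 months and 1 of 24 months, 2 animals of each sex. The nuclei came from a pool of 2 females and 2 males aged 12 months. The detrusor, the muscular wall, was sampled as a detrusor-only cell library of 3 females and a detrusor-enriched cell library of 2 females and 2 males, all of 14 months. Of the 4 sections, 2 were labelled as males aged 22 months and 2 as males aged 14 months, each with 4 animals. The bulk samples were 3 libraries of intact bladder and 3 of dissociated bladder, each labelled with 3 females of 12 months. The labels do not say whether libraries of 1 group came from separate animals, so p-values measure only the spread between these libraries, which may be technical.

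Prostaglandins are short-lived lipids made from arachidonic acid. The cyclooxygenases encoded by Ptgs1 and Ptgs2 make a common precursor, which Ptges (microsomal prostaglandin E synthase), Ptgis (prostacyclin synthase) and Ptgds (lipocalin-type prostaglandin D synthase) convert to different products. Hpgd encodes the dehydrogenase that inactivates prostaglandins, and Ptger2, Ptger3 and Ptger4 encode receptors for prostaglandin E. Ptgs1 is generally described as the constitutive cyclooxygenase and Ptgs2 as the inducible one. In the bladder, prostaglandins released from the wall are known to affect muscle tone and sensory nerves.

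Promoter sequences are shown for the 4 genes that rose together in dissociated bladder, and for Ptgs1, the cyclooxygenase that did not pass that test, so that the promoters can be set side by side. RefSeq's table on GRCm38.p6 matched 8 of the 9 genes, with Ptgis the exception. Each line gives the 250 bases before the annotated start, 5′ to 3′ on the strand of the gene. Capitals mark matches on either strand to 7 motifs: the GC box GGGCGG, the C/EBP site TTNNGNAA, the cAMP response element core CGTCA, the E-box CACGTG, the AP-1 site TGANTCA, the TATA box TATAAA and the NF-kB site. The regions are chr1:150099781-150100030 for Ptgs2 (+ strand), chr2:30903298-30903547 for Ptges (- strand), chr14:44987861-44988110 for Ptger2 (+ strand), chr15:5244188-5244437 for Ptger4 (- strand) and chr2:36230176-36230425 for Ptgs1 (+ strand). The annotated spans of Ptgs1 (chr2:36216742-36258593) and Ptges (chr2:30889471-30931020) extend past their windows, so these 2 windows lie inside the gene, before the start of one of its transcripts, and the other 3 lie directly before the gene.
Ptgs2: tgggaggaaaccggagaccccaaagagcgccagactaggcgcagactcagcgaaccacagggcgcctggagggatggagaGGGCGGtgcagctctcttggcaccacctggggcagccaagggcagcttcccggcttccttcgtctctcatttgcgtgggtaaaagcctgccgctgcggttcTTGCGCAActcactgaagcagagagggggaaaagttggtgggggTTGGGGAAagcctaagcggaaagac
Ptges: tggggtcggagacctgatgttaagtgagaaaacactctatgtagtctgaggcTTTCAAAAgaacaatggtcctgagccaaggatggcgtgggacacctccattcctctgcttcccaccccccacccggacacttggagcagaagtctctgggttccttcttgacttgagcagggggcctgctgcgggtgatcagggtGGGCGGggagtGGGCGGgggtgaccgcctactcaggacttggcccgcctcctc
Ptger2: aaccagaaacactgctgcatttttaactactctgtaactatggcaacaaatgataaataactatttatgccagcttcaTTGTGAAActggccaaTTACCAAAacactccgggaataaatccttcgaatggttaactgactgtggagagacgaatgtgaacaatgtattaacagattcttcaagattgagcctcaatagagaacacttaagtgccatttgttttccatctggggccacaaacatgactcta
Ptger4: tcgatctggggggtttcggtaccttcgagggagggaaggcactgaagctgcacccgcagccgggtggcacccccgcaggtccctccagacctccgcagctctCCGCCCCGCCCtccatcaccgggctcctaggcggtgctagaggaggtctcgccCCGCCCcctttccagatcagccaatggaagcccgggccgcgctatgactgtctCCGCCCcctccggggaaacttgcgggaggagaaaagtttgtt
Ptgs1: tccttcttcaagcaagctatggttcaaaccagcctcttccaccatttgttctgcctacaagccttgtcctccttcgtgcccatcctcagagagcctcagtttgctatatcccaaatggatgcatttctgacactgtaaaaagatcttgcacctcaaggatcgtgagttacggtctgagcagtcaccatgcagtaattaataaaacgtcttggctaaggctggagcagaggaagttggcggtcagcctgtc
The Ptgs2 window held a GC box at base -170 and C/EBP matches at -69 and -25, counted from the start. The Ptges window held a C/EBP match at -198 and GC boxes at -53 and -42. The Ptger2 window held C/EBP matches at -172 and -156 and no GC box, whereas the Ptger4 window held GC boxes at -148, -143, -95 and -42 and no C/EBP match. The first 2 of these Ptger4 boxes overlap, since the second starts on the last base of the first. The Ptgs1 window held none of the 7 motifs. Other members that did not rise held the same motifs in windows not printed here. Hpgd, which fell, held a GC box at -50 and a C/EBP match at -192. Ptger3, which did not pass the test, held GC boxes at -87, -60 and -15. The motifs therefore do not set apart the 4 genes that rose. Among all 32851 promoters of the table, 32.7% of windows of this length held a GC box and 36.8% a C/EBP match, so these matches are common. In the 50 bases past the start, Ptger2 held a further C/EBP match, at base 40, and Ptgs2 a cAMP response element core overlapping an E-box, both in capitals in the stretch chr1:150100036-150100059.
Ptgs2 past the start: caccactaCGTCACGTGgagtccg
With 300 bases counted, including 50 past the start, 20.8% of promoters held the core and 7.15% the E-box. These are matches of letters, and no factor's binding was measured in the series.

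Bulk libraries held between 23083752 and 68760791 reads, and droplet libraries between 5197910 UMIs (unique molecular identifiers, which count RNA molecules) for the nuclei and 55374101 for the detrusor-enriched cells. The deposited tables carry no cell types, so the cells of each library were clustered and clusters were named "like" a class from marker lists. Of 171 clusters, 3 with 93 of 35086 cells stayed unnamed. In each library, only classes with at least 50 cells were used. Smooth muscle-like cells reached that number in the detrusor libraries and the nuclei and in none of the whole-bladder cell libraries. Levels are in CPM, the UMIs of a gene scaled to a common total for each class in each library. Transcript lengths were not available, so levels are compared between samples or classes and not between genes. The 2 male whole-bladder tables carry shorter barcodes than the mixed ones and share 64 of them, 1.00% of the smaller library. Sex mix and table format therefore cannot be told apart.

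Dissociated bladder held more Ptgs2, Ptger4, Ptger2 and Ptges RNA than intact bladder and less Hpgd. Of the 8 members with enough reads to test, these 5 passed edgeR's quasi-likelihood test at a Benjamini-Hochberg adjusted p under 0.05, in a comparison in which 59.2% of all 16538 genes did. With 27.9% of all genes called higher and 31.3% called lower, a call alone was not unusual, and the sizes of the changes are given for each gene. The 4 members that rose and the 1 that fell were also those whose intact and dissociated libraries did not overlap, which held for 67.2% of all genes. The question is how far the preparation of cells for sequencing moves these genes away from their level in the organ.

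Of the cyclooxygenases, Ptgs2 moved most. Its level, scaled by TMM factors, was 8.42, 7.86 and 13.3 CPM in the 3 intact libraries and 302, 352 and 373 CPM in the 3 dissociated ones. Every dissociated library was above every intact one, and the log2 difference of dissociated minus intact was 5.13 ± 0.22 (SE, n = 3 and 3), a 35.0-fold rise (edgeR adjusted p = 3.36e-06). Only 56 of the 16538 genes tested, 0.339%, had a larger log2 difference. Ptgs1 stood at 80.5, 80.8 and 104 CPM in intact and at 99.9, 97.6 and 141 CPM in dissociated bladder, so its groups overlapped. Its log2 difference of 0.35 ± 0.17 did not pass edgeR's test (adjusted p = 0.105) but passed that of DESeq2 (0.40, adjusted p = 0.0476).

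Among the synthases, Ptges stood at 93.0, 81.4 and 90.2 CPM in intact and at 221, 164 and 203 CPM in dissociated bladder. The groups did not overlap, and Ptges rose by a log2 difference of 1.15 ± 0.12 (edgeR adjusted p = 0.000162). Ptgis, at 97.3, 87.4 and 101 CPM in intact and 131, 108 and 79.3 CPM in dissociated libraries, gave a log2 difference of 0.16 ± 0.17 that did not pass (edgeR adjusted p = 0.440). The third dissociated library was the lowest of the 6 for Ptgis, and without it the difference was 0.33 and passed (edgeR adjusted p = 0.0343). Without the first dissociated library the difference was -0.0094. Ptgds had between 1 and 3 reads in every bulk library and was not tested. Hpgd, the breakdown enzyme, stood at 97.8, 95.3 and 99.0 CPM in intact and at 75.3, 83.2 and 69.2 CPM in dissociated bladder. It fell by 0.36 ± 0.08 on the log2 scale (edgeR adjusted p = 0.00755), a narrow shift between groups of small spread.

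The receptors differed from each other in this comparison. Ptger4 stood at 10.2, 13.1 and 10.9 CPM in intact and at 59.3, 59.5 and 73.8 CPM in dissociated bladder. All dissociated libraries were above all intact ones, with a log2 difference of 2.48 ± 0.13 (5.59-fold, edgeR adjusted p = 6.22e-06), and 2.27% of genes tested had a larger one. Ptger2 stood at 3.20, 3.50 and 2.77 CPM in intact and at 7.20, 7.99 and 7.82 CPM in dissociated libraries, again without overlap, and rose by 1.27 ± 0.15 (edgeR adjusted p = 0.000310). These are the 2 receptors of the set that raise cyclic AMP. Ptger3, which couples to its reduction, stood at 6.52, 10.6 and 17.3 CPM in intact and at 10.7, 21.4 and 6.38 CPM in dissociated bladder. It spread widely in both groups and its log2 difference of 0.16 ± 0.47 did not pass (edgeR adjusted p = 0.782). The difference was -0.40 without the second dissociated library and 0.57 without the third intact one.

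**Figure D1:**
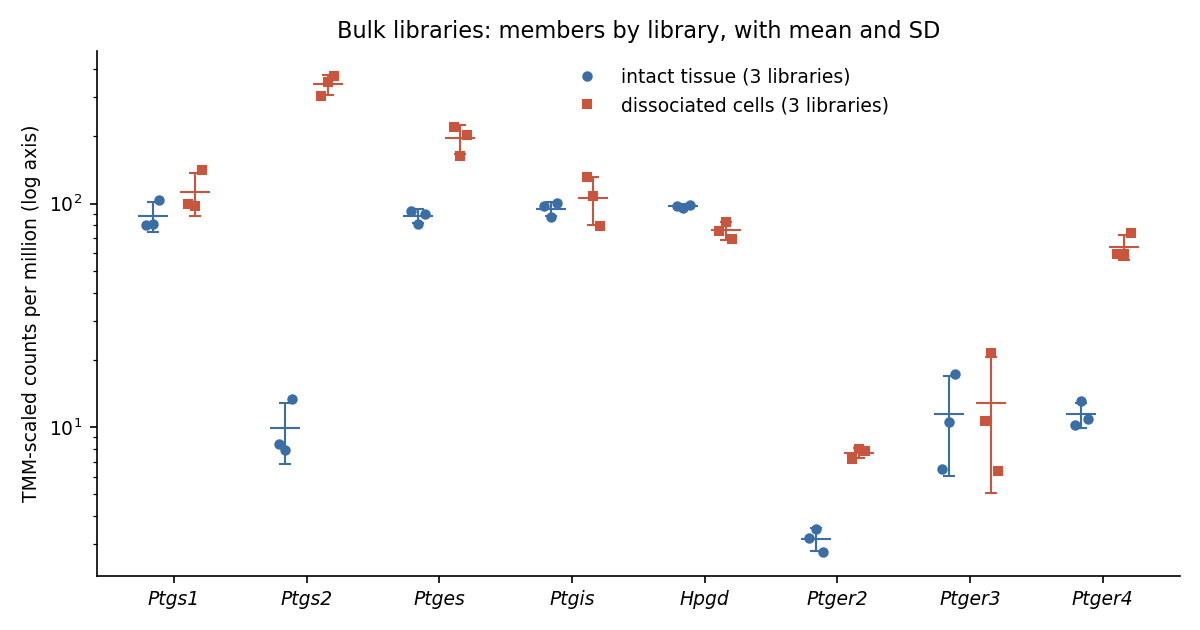
Level of each tested gene in the bulk libraries, in TMM-scaled CPM on a log axis, with 1 point per library and the mean and SD of each group (n = 3). Ptgs2 and Ptger4 sit far higher in the dissociated libraries, Ptges and Ptger2 moderately higher, Hpgd slightly lower, and the groups of Ptgs1, Ptgis and Ptger3 overlap.

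The make-up of the libraries also differed between these groups, and in bulk RNA fewer cells of a type and less RNA per cell cannot be told apart. The summed smooth muscle markers fell from 42642 to 44505 CPM in intact to 2290 to 3463 CPM in dissociated libraries, 0.0676 of the intact mean. The fibroblast list was 2.02 times, the dendritic list 2.09 times and the macrophage or monocyte list 1.45 times its intact mean, while the urothelial list was at 0.932 and the mesothelial list at 0.678 of it. A list of 22 immediate-early and stress genes, which other tissues are known to switch on during dissociation, went from 702 to 954 CPM in intact to 20757 to 25402 CPM in dissociated libraries. No gene in the table from these 7 lists was at 0 in any bulk library. Their part in the changes of the prostaglandin genes was not tested.

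Of 18 other prostaglandin pathway genes, 17 were tested in bulk, with 8 higher and 6 lower in dissociated bladder. Of all genes tested, 27.9% were called higher and 31.3% lower. The median log2 difference of the 17 genes was 0.22, beside 0.75 for the 8 members tested and -0.03 for all genes. The largest rise was in Ptgfr, the prostaglandin F receptor, from 6.67 ± 1.44 to 15.1 ± 5.04 CPM (mean ± SD, n = 3, log2 difference 1.18, edgeR adjusted p = 0.00623). The largest fall was in Tbxa2r, the thromboxane receptor, from 5.28 ± 0.33 to 2.39 ± 0.66 CPM (-1.14, edgeR adjusted p = 0.00351). Its highest class median in the cells was in smooth muscle-like cells, at 28.3 CPM. Ptgdr, a prostaglandin D receptor, rose by 0.91 (edgeR adjusted p = 0.0196) from a low level, 0.786 ± 0.132 to 1.47 ± 0.26 CPM. Slco2a1, which carries prostaglandins into cells, rose by 0.81 (edgeR adjusted p = 0.00332), and Ptges3, a further prostaglandin E synthase and co-chaperone, by 0.60 (edgeR adjusted p = 0.00427). Ptgr1, a prostaglandin reductase, fell by 0.61 (edgeR adjusted p = 0.00148).

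The classes that carried each gene are described next, as medians and ranges over the cell libraries with at least 50 cells of the class, from 1 library for B-like cells to 7 for fibroblast-like and macrophage- or monocyte-like cells. They are descriptions, with no test between classes. Ptges and Ptger3 each had 1 class, fibroblast-like and mesothelial-like cells, that stood above all others in every cell library with that class, whereas Ptgs1, Ptgs2 and Hpgd were spread over several.

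Ptgs1 was highest in blood endothelial-like cells, with a median of 151 CPM (128 to 219 in 4 libraries), followed by mesothelial-like cells at 106 CPM (96.5 to 150) and fibroblast-like cells at 100.5 CPM (8.60 to 193). These ranges overlap, so the order of the first 3 is not clear. The lowest fibroblast-like value, 8.60 CPM from 230 UMIs, was that of the detrusor-only library, and the detrusor-enriched library stood at 125 CPM. Macrophage- or monocyte-like cells had a median of 83.0 CPM and urothelial-like cells 66.1 CPM (31.8 to 145). Smooth muscle-like cells were at 14.1 and 43.0 CPM in the detrusor libraries and at 114 CPM in the nuclei. There, fibroblast-like nuclei stood at 63.9 CPM and blood endothelial-like nuclei at 203 CPM. Pericyte-like cells were at 0 to 14.7 CPM.

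Ptgs2 was spread over several classes. Smooth muscle-like cells were at 47.2 CPM in the detrusor-only and 124 CPM in the detrusor-enriched library, and at 13.2 CPM in the nuclei. Fibroblast-like cells had a median of 63.1 CPM, dendritic-like cells 62.1 CPM (37.8 to 99.1) and macrophage- or monocyte-like cells a range of 5.00 to 169 CPM. These ranges overlap and give no clear order. The fibroblast-like values were 13.6 CPM in the 22-month and 17.5 CPM in the 3-month library, 62.2 and 342 CPM in the 2 libraries of 12 months and 63.1 CPM at 24 months. The detrusor libraries were at 67.4 and 73.0 CPM. The 22-month and 3-month libraries are the 2 male ones and were shallower, with medians of 2524.5 and 1837 UMIs per barcode. The mixed whole-bladder libraries had medians of 9893 to 15042 UMIs. Sex mix, table format and depth therefore cannot be told apart in these values. The second 12-month library stood apart, with 309 UMIs in 141 cells, and without it the range ended at 73.0 CPM. Urothelial-like cells were at 1.32 to 8.46 CPM in all 6 libraries, below the fibroblast-like cells of every one of them.

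In the same fibroblast-like cells, the immediate-early and stress list summed to 29555 to 36418 CPM in the 5 whole-bladder libraries, where Ptgs2 was at 13.6 to 342 CPM. The nuclei stood at 2576 CPM for the list and 21.3 CPM for Ptgs2, from 9 UMIs. Over all cells of a library, the list summed to 9830 to 40445 CPM in the 7 cell libraries and to 1575 CPM in the nuclei. The detrusor-only library had the highest list sum in fibroblast-like cells, 40321 CPM, and the detrusor-enriched library the lowest of the 7 cell libraries, 23110 CPM. Their Ptgs2 stood at 67.4 and 73.0 CPM. A link between the list and Ptgs2 in these cells was not tested.

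**Figure D2:**
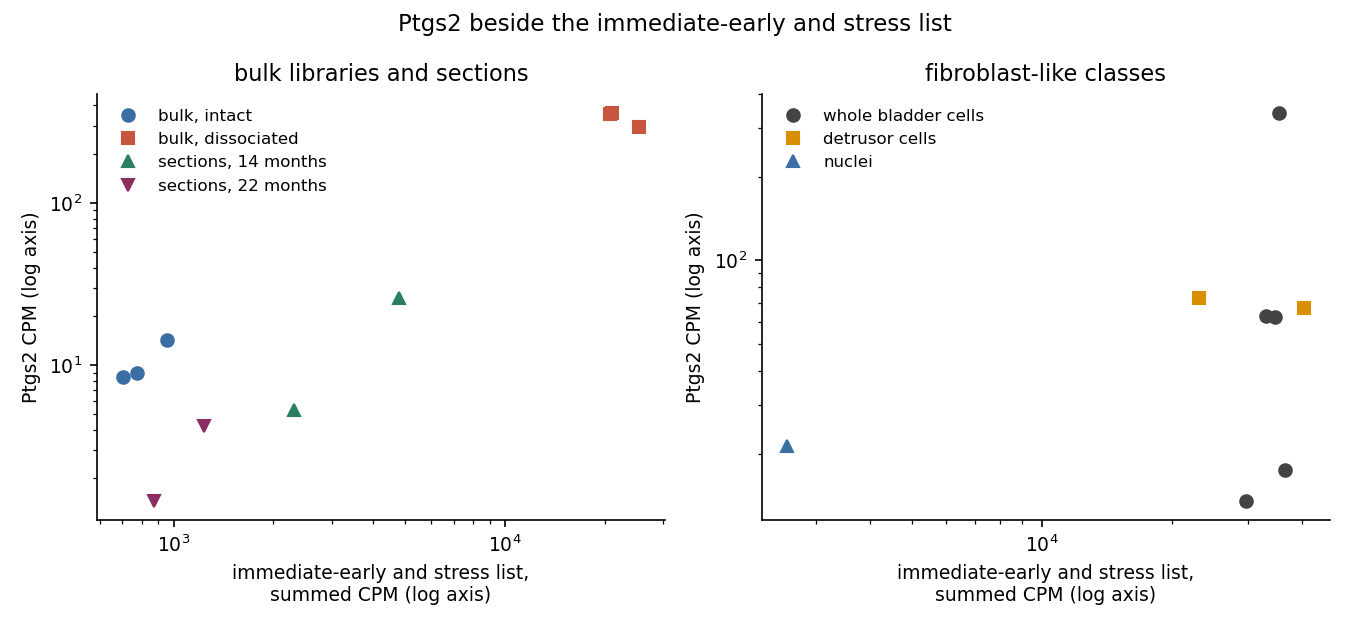
Ptgs2 in CPM against the summed CPM of 22 immediate-early and stress genes, both on log axes, with 1 point per library or section. The left panel holds bulk libraries and sections, and the right panel fibroblast-like cells and nuclei. The 3 dissociated bulk libraries lie high on both axes, while fibroblast-like cells span 13.6 to 342 CPM of Ptgs2 at list sums of 23110 to 40321 CPM.

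Ptges was highest in fibroblast-like cells, with values from 95.5 CPM in the detrusor-only to 175 CPM in the 3-month library and a median of 135 CPM. Urothelial-like cells followed at 29.1 CPM (19.2 to 48.5), below the lowest fibroblast-like value in every library. In all other classes the median was at most 7.24 CPM.

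Ptgis, the prostacyclin synthase, was highest in mesothelial-like cells, which line the outer surface, at 695 CPM in the 22-month, 635 CPM in the detrusor-only and 672 CPM in the detrusor-enriched library. Fibroblast-like cells had a median of 249.8 CPM, with 241 to 253 CPM in the 5 whole-bladder libraries, 416 CPM in the detrusor-enriched and 643 CPM in the detrusor-only library. In the detrusor-only library the 2 classes were nearly level. Smooth muscle-like cells stood at 184 and 279 CPM. Urothelial-like cells were at 1.37 to 14.3 CPM.

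Ptgds was nearly absent. Mesothelial-like cells held 37 UMIs of it in 3 libraries, at 7.76 to 20.4 CPM, and the median of every other class was 0. Hpgd was highest in macrophage- or monocyte-like cells, with a median of 240 CPM and a range of 21.7 to 367 CPM, followed by urothelial-like cells at 155 CPM (81.2 to 318) and mesothelial-like cells at 112 CPM (102 to 141). These ranges overlap. The lowest macrophage- or monocyte-like value came from 12 UMIs in 67 cells of the second 12-month library.

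The 3 receptors were carried by different classes. Ptger3 was read mainly in mesothelial-like cells, at 300 CPM in the 22-month, 227 CPM in the detrusor-only and 110 CPM in the detrusor-enriched library, and at 124 CPM in mesothelial-like nuclei. Fibroblast-like cells, the largest class, were at 0.711 to 16.6 CPM, the highest value being 15 UMIs in 4 of 141 cells of the second 12-month library, and T- or NK-like cells were at 0 to 18.6 CPM. In the detrusor-only library, 83.5% of mesothelial-like cells (exact 95% binomial interval 76.2% to 89.2%, counting error only) had a UMI of Ptger3 at a median of 14687 UMIs per cell, against 0.594% of fibroblast-like cells at a median of 8843 UMIs. With cells thinned to 1000 UMIs, which left 62 of 64, 131 of 139 and 59 of 78 mesothelial-like cells of the 3 libraries and 5595 of 5829, 3123 of 3200 and 2319 of 2371 fibroblast-like ones, 11.9% to 25.8% of the former and at most 0.197% of the latter had one.

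Ptger4 was highest in dendritic-like cells, with a median of 98.1 CPM (50.8 to 180), followed by macrophage- or monocyte-like cells at 59.2 CPM (19.0 to 114) and T- or NK-like cells at 59.0 CPM (32.6 to 103). These 3 ranges overlap. In fibroblast-like cells it was at 7.16 to 28.4 CPM and in urothelial-like cells at 9.68 to 34.9 CPM. Ptger2 was low in every class. Fibroblast-like cells had a median of 12.3 CPM (2.36 to 23.6) and lymphatic endothelial-like cells 8.57 and 13.1 CPM in the 2 detrusor libraries, from 17 UMIs.

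**Figure D3:**
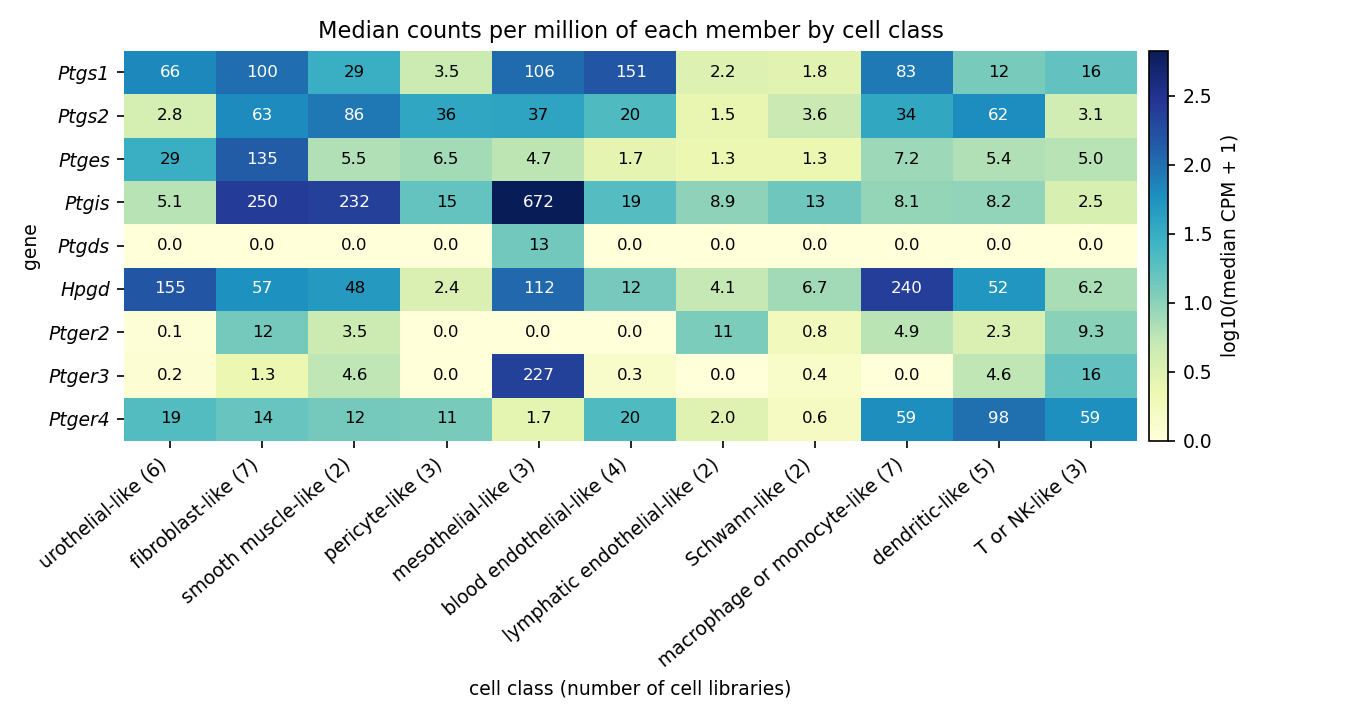
Median level of each gene by cell class as log10(median CPM + 1), over the cell libraries counted on the x axis, with the median CPM written in each field. Ptgis and Ptger3 are darkest in mesothelial-like cells, Ptges in fibroblast-like cells and Ptger4 in dendritic-like cells.

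The other pathway genes had their highest class medians as follows. Pla2g4a, the phospholipase that frees arachidonic acid, was highest in mesothelial-like cells at 171 CPM. Hpgds and Tbxas1, the haematopoietic prostaglandin D and thromboxane synthases, were highest in macrophage- or monocyte-like cells at 143 and 132 CPM. The transporter Slco2a1 was highest in blood endothelial-like cells at 199.8 CPM. Ptgir, the prostacyclin receptor, was highest in pericyte-like cells at 53.5 CPM (37.6 to 56.0), and Ptger1, another prostaglandin E receptor, also in pericyte-like cells at 14.7 CPM (7.05 to 35.0). Ptgis itself was at 8.17 to 56.0 CPM in pericyte-like cells.

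Within the fibroblast-like class, 2 sets of clusters, which hold most of its cells, differed in some of the prostaglandin genes. They were told apart by their leading genes, Car3 or Cxcl14 in one and Pi16 or Clec3b in the other, and these sets were chosen after the values had been seen, so the following is a description. In the 5 libraries with at least 50 cells in both sets, Ptgs1 was at 134 to 247 CPM in the Car3 or Cxcl14 set and higher there in 5 of 5. In the same libraries the Pi16 or Clec3b set held 29.1 to 65.5 CPM of Ptgs1. Ptges was also higher in the Car3 or Cxcl14 set in 5 of 5, at 139 to 210 CPM against 95.8 to 142 CPM, and so was Ptger2, at 17.3 to 30.9 CPM against 2.46 to 10.5 CPM.

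The opposite held for Ptgis and Hpgd. Ptgis was at 152 to 259 CPM in the Car3 or Cxcl14 set and at 315 to 581 CPM in the Pi16 or Clec3b set of these libraries, and lower in the former in 5 of 5 libraries. Hpgd was at 6.58 to 36.4 CPM against 62.5 to 138 CPM, again lower in 5 of 5. Ptgs2 was higher in the Pi16 or Clec3b set in 4 of 5. Ptger3 and Ptger4 had no steady direction, each higher in the Car3 or Cxcl14 set in 3 of 5 and in the other set in 2. Ptgds was at most 1.24 CPM in either set. The detrusor-only library had no cluster led by Car3 or Cxcl14, and its fibroblast-like cells were those lowest in Ptgs1 and highest in Ptgis. The nuclei had 34 cells in the Car3 or Cxcl14 set, of 388.

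The split leaves some fibroblast-like clusters out, and the 3 of these with at least 50 cells held more Ptges than any of the sets in their library. A cluster of 524 cells at 22 months, led by neither pair of genes, was at 258 CPM of Ptges, against 180 CPM in the Car3 or Cxcl14 set of that library. A cluster of 185 detrusor-enriched cells led by genes of both pairs was at 227 CPM of Ptges against 189 CPM, and at 20.4 CPM of Ptger2 against 19.4 CPM. This cluster also held 352 CPM of Ptgis and 97.0 CPM of Hpgd, so high Ptges and high Hpgd were read in the same cluster. In the detrusor-only library, a cluster of 52 cells led by neither pair was at 152 CPM of Ptges, from 61 UMIs, and at 24.9 CPM of Ptgis.

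**Figure D4:**
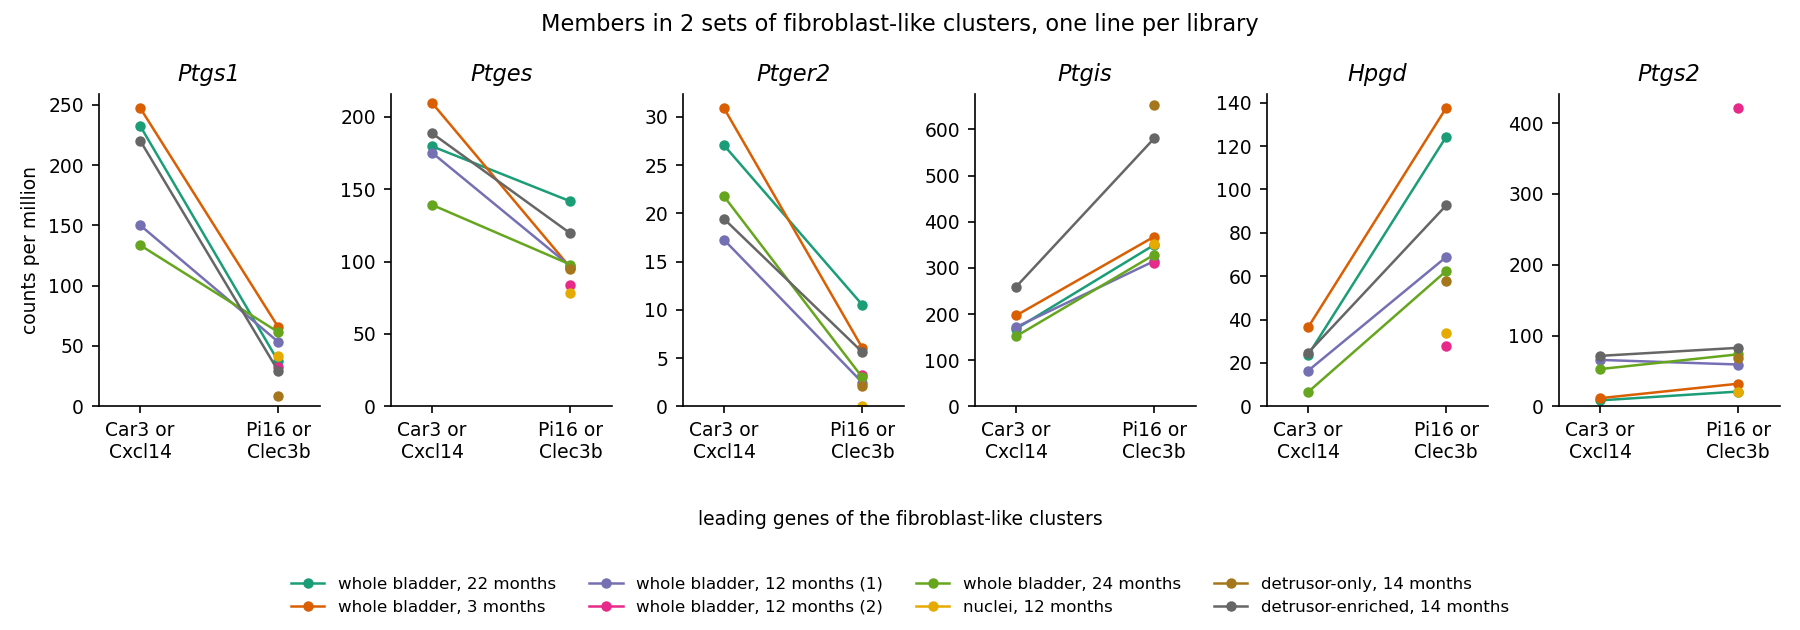
CPM in fibroblast-like clusters led by Car3 or Cxcl14 (left) and by Pi16 or Clec3b (right), with 1 line per library holding at least 50 cells of both. Ptgs1, Ptges and Ptger2 run down from left to right and Ptgis and Hpgd run up in all 5 libraries.

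Urothelial-like cells were likewise split by their uroplakins, the plaque proteins of the bladder's surface cells, into clusters with the lowest and the highest summed level, a split also made after the values had been seen. Ptgs1 and Ptges were higher at the low-uroplakin end in all 5 whole-bladder libraries. In the first 12-month library Ptgs1 was at 92.2 CPM at the low end and 11.3 CPM at the high end, and Ptges at 62.8 and 4.93 CPM. The smallest gap was in the 3-month library, with 185 and 141 CPM of Ptgs1 and 60.9 and 49.4 CPM of Ptges. In the nuclei the ends were level, with 139 and 142 CPM of Ptgs1 and 36.1 and 37.8 CPM of Ptges. The nuclei had only 2 such clusters, at 2145 and 3454 CPM of summed uroplakins. The ends lay at 2005 and 12181 CPM in the first 12-month library and at 4710 and 9245 CPM in the 3-month library. The ends are therefore not alike between libraries. In the detrusor-enriched library Ptgs1 was lower at the low end (58.7 CPM from 42 UMIs, and 72.0 CPM). Hpgd was also higher at the low end in all 5 whole-bladder libraries, though by little in 3 of them, from 119 and 115 CPM at 24 months to 111 and 74.2 CPM in the second 12-month library. In the nuclei (140 and 162 CPM) and the detrusor-enriched library (90.9 CPM from 65 UMIs, and 225 CPM) it was lower there. The low-end cluster of the detrusor-enriched library was shallow, with a mean of 617 UMIs in each of its 1159 cells against 33624 UMIs at the high end. It also held 138 CPM of Ptgis and 32.2 CPM of Ptgs2, against 2.87 and 4.31 CPM at the high end. The low end of the whole-bladder libraries held 1.86 to 15.1 CPM of Ptgis and 0.605 to 14.3 CPM of Ptgs2. The part of depth and of RNA from other cells in the values of this cluster was not tested.

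Likeness over all genes was measured as Pearson's r of log2(CPM + 1) over 51 sums of 1 class in 1 library, among 9354 genes with a mean of at least 10 CPM. These sums share libraries and depth, so r is a description. Nearest to Ptger3 was Lrrn4 (r = 0.82), and nearest to Ptgds was Chst4 (0.93). Chst4 also ranked among the 3 nearest of Ptger3, and Lrrn4 among those of Ptgds. Lrrn4 is a marker from which mesothelial-like clusters were named, so its likeness to genes read mainly there was partly set by the naming. Ptgis was nearest to Ogn (0.91), Ptges to Kcnk2 (0.80), Hpgd to Arhgap22 (0.77) and Ptger4 to Irf8 (0.73). The nearest of Ptgs1 were Ces2g (0.73), Gdpd5 (0.69) and Pla2g4a (0.67), the last being the phospholipase named above. Ptgs2 and Ptger2 had no close neighbour, with Coq10b (0.64) and Serpina3g (0.66) nearest.

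Nuclei were set against whole-bladder cells to ask which of these genes read differently in the other preparation. In fibroblast-like sums, 3 of 8 members tested passed edgeR's test, all lower in the nuclei, in a comparison in which 25% of 12413 genes passed, 16.4% lower and 8.61% higher. There was 1 nuclei library, which was assumed to vary like the cell libraries. Ptgs1 was at 145, 187, 125, 120 and 118 TMM-scaled CPM in the libraries of 22, 3, 12, 12 and 24 months and at 38.4 in the nuclei (log2 difference -1.86 ± 0.41, edgeR adjusted p = 0.0176). Ptges was at 173, 170, 168, 150 and 144 CPM in the same cells and at 52.6 CPM in the nuclei (-1.61 ± 0.32, edgeR adjusted p = 0.0129). For both, the nuclei lay below every cell library, while 71.1% of all genes had nuclei outside the range of the cells in one direction or the other. The median of all genes was -0.33 in this comparison, and -0.10 with RLE size factors, so these falls went beyond the general shift.

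Ptger2 had 0 UMIs in the 422419 of the fibroblast-like nuclei, which allows up to 7.10 CPM (3 counts), and 3.32 to 23.6 CPM in the 5 cell libraries, of which 4 lay above that limit. It passed (edgeR adjusted p = 0.0375), but not without the 22-month (0.0622), the first 12-month (0.0544) or the 24-month library (edgeR adjusted p = 0.0595). Ptgs2, at 12.8 TMM-scaled CPM in the nuclei and 13.9 to 435 in the cells, did not pass (edgeR adjusted p = 0.412). Without the scaling it was at 21.3 CPM in the nuclei, inside the 13.6 to 342 CPM of the cells. Only 34 of the 388 nuclei were in the Car3 or Cxcl14 set, where Ptgs1, Ptges and Ptger2 were higher than in the Pi16 or Clec3b set of the cells, and the part of that make-up in these differences was not tested. The smooth muscle list summed to 10809 CPM in these nuclei and to 312 to 2478 CPM in the cells.

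In urothelial-like sums, none of 6 members passed edgeR's test, where 35.2% of 13327 genes did, and DESeq2 called none. At an unadjusted p under 0.05, which 46.3% of all genes reached, there were 2, Ptges (log2 difference -0.91) and Hpgd (-1.22), both lower in the nuclei. Without TMM scaling, these nuclei stood at 36.9 CPM of Ptges and 151 CPM of Hpgd. The whole-bladder cells then had medians of 28.2 CPM (19.2 to 48.5) and 115 CPM (81.2 to 318), so neither fall was seen. Both directions, like those against 12-month cells below, are on the TMM scale. Set against the 2 cell libraries of the same age alone, 5 of 6 passed, where 53.7% of 12937 genes did. Hpgd (-0.80, edgeR adjusted p = 0.0166), Ptgs2 (-2.59, edgeR adjusted p = 0.0209) and Ptger4 (-1.90, edgeR adjusted p = 0.000283) were then lower in the nuclei, and Ptgis (1.83, edgeR adjusted p = 0.00378) and Ptgs1 (0.61, edgeR adjusted p = 0.0328) higher. On the TMM scale, the urothelial-like cells of the 2 male libraries were at 83.0 and 125 CPM of Ptgs1, those of the 12-month libraries at 51.7 and 45.0 CPM and the nuclei at 73.0 CPM. The smooth muscle list summed to 5121 CPM in the urothelial-like nuclei and to 16.3 and 54.9 CPM in the 12-month cells. Without TMM scaling, smooth muscle-like nuclei held 149 CPM of Ptgis and 114 CPM of Ptgs1, and urothelial-like nuclei 18.9 and 140 CPM. The part of RNA from other cells in these differences was not tested. Of the other pathway genes, 4 of 13 were lower and 0 higher in urothelial-like nuclei, where 19.2% of all genes were lower and 16% higher. In fibroblast-like nuclei 2 of 16 were lower, near the 16.4% of all genes, and 0 were higher. The 4 were Fam213b, a prostaglandin F synthase (log2 difference -3.13, edgeR adjusted p = 0.00747), the reductases Ptgr1 (-2.68, 0.00154) and Cbr1 (-2.49, 0.0110) and Ptges2, a prostaglandin E synthase (-1.97, 0.0144). The 2 in fibroblast-like nuclei were Fam213b (-2.96, edgeR adjusted p = 0.00862) and Cbr1 (-2.12, edgeR adjusted p = 0.0179).

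Age was compared in whole-bladder cells, as 22 and 24 against 3, 12 and 12 months with a term for whether a pool was male or mixed. No member passed edgeR's test in urothelial-like cells (0 of 6, with 0% of 12678 genes called) or in fibroblast-like cells (0 of 8, with 0.0255% of 11747 genes called), and DESeq2 called none in either. At an unadjusted p under 0.05, reached by 2.53% of all genes in urothelial-like and 2.7% in fibroblast-like cells, there was 1 member in urothelial-like cells, Ptgis, and there were 0 in fibroblast-like cells. Ptgis was at 11.5 and 4.16 TMM-scaled CPM in the older and 4.91, 2.95 and 1.67 CPM in the younger libraries (log2 difference 0.97 ± 0.31). The fibroblast list in these urothelial-like sums was at 3149 and 279 CPM in the older and 991, 264 and 107 CPM in the younger libraries. The part of RNA from fibroblasts was not tested. Fibroblast-like Ptgs2 was at 12.1 and 67.4 TMM-scaled CPM in the older and at 15.1, 67.3 and 394 in the younger libraries (-1.13 ± 1.11). Without the second 12-month library the difference was -0.14. The older and younger libraries overlapped for every member tested in either class, while they did not for 8.27% of all genes in urothelial-like and 7.32% in fibroblast-like cells.

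Sections of 22 and 14 months were compared as sums over their spots. No member of 8 passed edgeR's test and 0% of 14995 genes did, and DESeq2 called no member and 426 genes. At an unadjusted p under 0.05, which 16.6% of all genes reached, there were 2 members. Ptgis was at 194 and 182 TMM-scaled CPM at 22 months and 263 and 209 CPM at 14 months (log2 difference -0.33 ± 0.13), and Ptger3 at 0.869 and 0.674 against 2.54 and 1.39 CPM (-1.32 ± 0.42). In 6 members, Ptgs2, Ptgis, Hpgd, Ptger2, Ptger3 and Ptger4, the 2 groups did not overlap, which held for 51.6% of all genes.

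Ptgs2 had the largest difference between sections and also the largest spread. It was at 4.18 and 1.54 TMM-scaled CPM at 22 months and at 25.7 and 5.07 at 14 months (-2.37 ± 1.13, edgeR adjusted p = 0.423). Without the first 14-month section the difference was -0.80. Between sections, the immediate-early and stress list followed the same order, with 1239 and 871 CPM at 22 months and 4781 and 2313 CPM at 14 months. Its part in the Ptgs2 values was not tested. Sections were frozen and not dissociated, and their Ptges stood at 49.3 to 60.2 CPM and their Ptger4 at 9.77 to 12.2 CPM, with little spread.

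Within the sections, the spots rich in a marker list were set against the rest. A spot is a small region that can hold several cell types, and the highest 25% of spots by a list's share of UMIs were called rich. Ptgis was higher in smooth muscle-rich spots in 4 of 4 sections, by ratios of 2.86 to 4.64, at 471, 504, 593 and 528 CPM against 153, 109, 207 and 165 CPM elsewhere. It was also higher in 4 of 4 in macrophage- or monocyte-rich (2.06 to 2.51), fibroblast-rich (1.31 to 1.97) and blood endothelium-rich spots (1.27 to 1.49). In urothelium-rich spots it was lower in 4 of 4, at 0.128 to 0.188 of the level elsewhere. Ptgs2 was higher in 4 of 4 in smooth muscle-rich (1.25 to 2.82), macrophage- or monocyte-rich (1.22 to 3.08), fibroblast-rich (1.47 to 2.06) and blood endothelium-rich spots (1.73 to 2.05), ranges that overlap. It was lower in urothelium-rich spots in the 3 sections with enough UMIs (0.216 to 0.365). In spots rich in the immediate-early and stress list, Ptgs2 was higher in 2 of 4 sections, with ratios of 0.570 to 2.11. With the highest 10% of spots it was higher in 2 of the 3 sections with enough UMIs (0.626 to 2.10). At 25%, the spots rich in that list had Ptgis ratios of 0.227 to 1.69. In the 14-month sections these spots had medians of 16495 and 31364 UMIs, against 15373 and 12360 in the rest. In the 22-month sections they had 12707 and 15064.5 UMIs, against 15387.5 and 17125.5. The part of tissue make-up and depth in these ratios was not tested, nor was a link between the list and Ptgs2 within sections.

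Ptges and Ptger2 were higher in fibroblast-rich spots in 4 of 4 sections, by 1.57 to 2.52 and by 1.55 to 3.75. They were higher in blood endothelium-rich spots to a like degree, by 1.53 to 2.19 and by 1.32 to 3.15, although blood endothelial-like cells had a median of 1.67 CPM of Ptges. In smooth muscle-rich spots Ptges was at 0.497 to 0.686 of the rest. Hpgd showed the opposite layout to Ptgis, with 1.47 to 1.86 in urothelium-rich and 0.394 to 0.611 in smooth muscle-rich spots, each in 4 of 4 sections. In macrophage- or monocyte-rich spots Hpgd was lower in 4 of 4 (0.559 to 0.648), although that class had its highest median in the cells. Ptgs1 was lower in urothelium-rich (0.588 to 0.955) and mesothelium-rich spots (0.652 to 0.744), each in 4 of 4 sections. It was higher in blood endothelium-rich (1.13 to 1.44) and smooth muscle-rich spots (1.05 to 1.43), each in 4 of 4. With the highest 10% of spots, the smooth muscle list gave higher Ptgs1 in 2 of 4. Ptger4 was higher in urothelium-rich (1.04 to 1.38) and lower in smooth muscle-rich spots (0.274 to 0.958), also in 4 of 4. With the highest 10% of spots, the median log2 ratio of Ptger4 for the urothelial list was -0.08, against 0.14 with 25%. Urothelium-rich spots were deeper, with medians of 31281 to 49154 UMIs in a section against 12030 to 14965 UMIs in the rest, and the part of depth was not tested.

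Ptger3, with 14 to 54 UMIs in a section, was at 0.973 to 3.02 times the rest in mesothelium-rich spots, higher in 3 of 4 sections. Its ratios were at 1.65 to 3.96 in fibroblast-rich, 2.14 to 8.11 in macrophage- or monocyte-rich and 1.13 to 3.84 in smooth muscle-rich spots, higher in 4 of 4 for each, so at this setting mesothelium-rich spots did not stand out. In the highest 10% of spots by that list it was at 4.65, 1.18, 8.41 and 8.84 CPM in the 4 sections, against 0.498, 0.569, 2.06 and 0.870 CPM in the rest. These rest on 13, 3, 14 and 14 UMIs. In the 3 sections with at least 13 of them the ratio was 4.09 to 10.2. At the same setting the fibroblast list gave ratios of 2.78 to 7.20, higher in 4 of 4 sections, and these ranges overlap. The macrophage or monocyte list gave 2.14 to 4.16 in the 2 sections with enough UMIs. Ptgis, the other gene highest in mesothelial-like cells, was at 0.436 to 0.544 of the rest in the highest 25% of spots by the mesothelial list. In the highest 10% it was at 0.860 to 1.60.

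**Figure D5:**
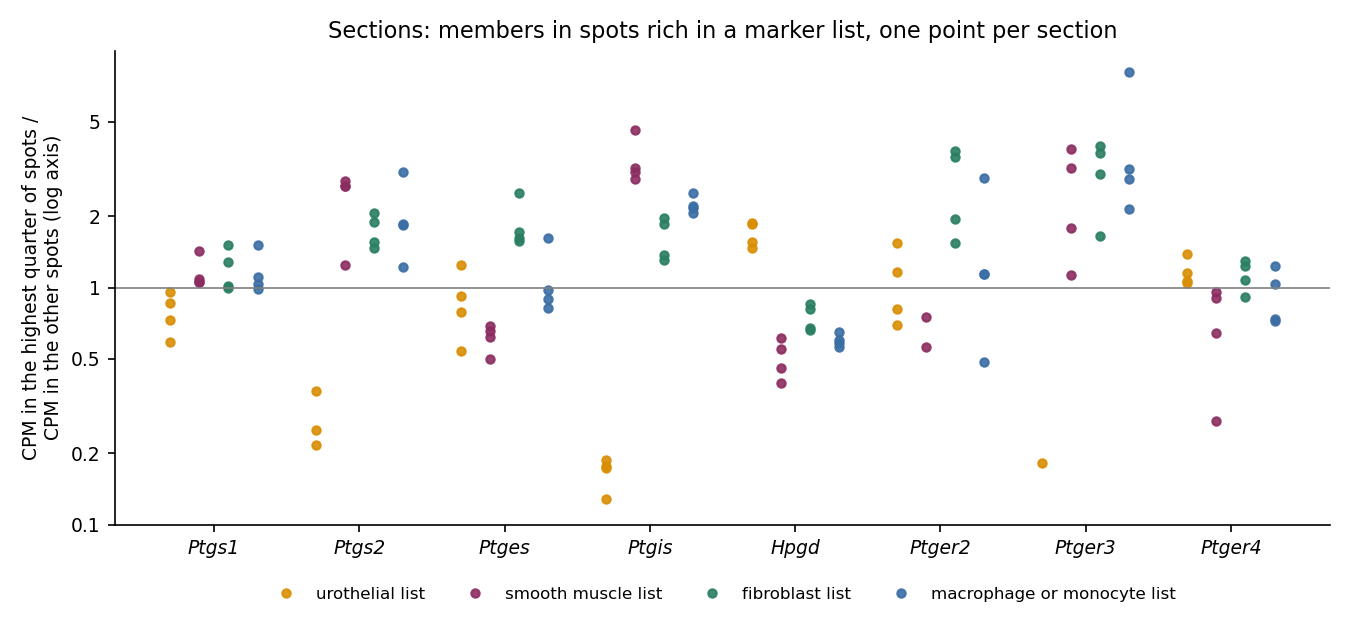
Ratio of CPM in the highest 25% of spots by a marker list to CPM in the other spots, on a log axis, with 1 point per section. Ptgis lies above 1 for the smooth muscle list and far below 1 for the urothelial list in all 4 sections, and Hpgd lies the other way round.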

How the data were processed

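The deposited droplet and section tables hold UMI counts per gene and barcode, and the bulk table, as deposited, holds counts of reads by gene symbol, as their whole-number values show. Cell Ranger, Space Ranger, Subread with featureCounts and the build mm10 are named without versions in the submitters' processing notes, and per the labels the bulk libraries were polyA-selected. Whether bulk reads were counted by strand is not given in the sources used here, and RefSeq places long non-coding RNAs over Ptges and Ptgis.

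From the deposited counts, barcodes under 500 UMIs or over 20% mitochondrial counts were left out, and doublets were removed by a score against simulated doublets (0.8% of cells per 1000 barcodes). Cells were clustered with leidenalg 0.10.2 (2000 variable genes, 30 principal components, 15 neighbours, Leiden resolution 1). Clusters were named from 19 marker lists by at least 3 markers raised 2-fold in 10% of cells, a rule settled after clusters had been seen. Sums over a class in a library, a section or a bulk library were tested in R 4.3.3 with edgeR 4.0.16 (quasi-likelihood, TMM, filterByExpr, two-sided, Benjamini-Hochberg over all genes tested, threshold 0.05). DESeq2 1.42.0 was an alternative. The scripts were tested on simulated data. SE is the absolute log2 difference over the square root of F.

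The 9 genes were named in every comparison. Of the other pathway genes, up to 6 called genes of largest change with a mean of at least 1 CPM were named, and for each member the 3 most alike. The members and lists were chosen with earlier results of these data known. In sections the mitochondrial limit was not applied and spots with at least 500 UMIs were kept, 937 to 1317 per section. The depth per class sets the precision, and intervals cover counting error only.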

Additional observations from a re-analysis of the deposited data

How the results depend on the processing

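Of 421 member fold changes recomputed under alternatives, 368 kept their sign and their side of the threshold, 7 newly passed, 6 no longer passed and 1 passed with the other sign. The other 39, in 16 of 44 fold changes, changed sign without passing before or after, 29 of them with 1 library left out, so those 16 carry no direction. The largest of the 16 was -0.51, Ptger4 with age in fibroblast-like cells. The count of members called in bulk was 5, and 2 (Ptgs2 and Ptger4) against a log2 minimum of 1. In urothelial-like nuclei the count was 0, and 5 with the 12-month cell libraries alone, where the log2 difference of Ptgs1 turned from -0.02 to 0.61. Leaving out 1 library in turn gave 5 to 6 members in bulk, 2 to 3 in fibroblast-like nuclei and 0 in the 4 other comparisons. Among the medians by class, 201 of 216 alternatives stayed within the spread between libraries, as did 30 of 53 for the spots, whose medians moved with the highest 10% of spots.

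Bulk libraries share replicate numbers. The deviations of same-numbered libraries correlated at 0.28, 0.38 and -0.05, and those of differently numbered ones at -0.50 to 0.30. These ranges overlap and do not settle whether the libraries were paired. The numbers were not taken to pair them in the main fit. With the replicate number as a block, 6 members (Ptgs1 added, log2 difference 0.34, edgeR adjusted p = 0.00803) and 10011 genes were called, beside 9798 without it.

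Counts over all genes moved more. Bulk gave 9798 genes, and 1789 with the log2 minimum. Sections gave 0, and 426 with DESeq2, 287 with no filter and, without a section, 0 to 300. Age gave 0 in urothelial-like cells, and 130 with no filter, and 3 in fibroblast-like cells, and 103 without the 24-month library. Urothelial-like nuclei gave 4695, and 6946 with 12-month cells. In fibroblast-like nuclei 34.5% of called genes were higher, and 47.3% with RLE size factors. The causes were not tested. Low UMI counts limit Ptgds, Ptger2 and Ptger3, and single libraries limit the nuclei and the detrusor.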

Other observations

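The leukotriene and lipoxygenase genes, which draw on the same arachidonic acid, were carried mostly by leukocyte-like classes. Alox5ap, which presents arachidonic acid to the lipoxygenase Alox5, had its highest class median in dendritic-like cells at 788 CPM (687 to 1509 in 5 libraries). Alox5 (47.6 CPM) and Ltc4s, the leukotriene C synthase (189 CPM), were highest in macrophage- or monocyte-like cells, and the leukotriene receptors Ltb4r1 (196 CPM) and Cysltr2 (18.6 CPM) in T- or NK-like cells. Alox12 was highest in urothelial-like cells at 28.1 CPM. In bulk, 5 of the 9 genes rose and 1 fell in dissociated bladder, beside 27.9% and 31.3% of all genes, with a median log2 difference of 0.50. Ltb4r1 rose by 1.09 (edgeR adjusted p = 0.00875), Cysltr2 by 1.07 (0.0291), Alox5ap by 0.67 (0.00403), Cysltr1 by 0.60 (0.0180) and Alox5 by 0.50 (0.0202), while Lta4h fell by 0.49 (edgeR adjusted p = 0.00105). The summed T or NK list was 2.73 times its intact mean, and 1.49 times without the second dissociated library, and the macrophage or monocyte list was 1.45 times its own. The part of these cells was not tested.

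Over whole libraries, without TMM scaling, Ptgs2 stood at 296 to 360 CPM of reads in dissociated bulk bladder, at 8.31 to 23.8 CPM of UMIs in the 5 whole-bladder cell libraries and at 56.5 and 56.7 CPM in the detrusor libraries. Reads over whole transcripts and UMIs are different scales, so these values stand side by side and are not compared.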
